A study of Homo sapiens with 90 samples.

Results

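The rise of imazalil from 3 to 10 µM in HepaRG cells was examined as a step of its own, with 3 arrays at each concentration paired by replicate number. These 6 arrays were chosen by their chemical and concentration labels alone, out of 90 in the series, and no DMSO array entered the comparison. HepaRG is an established human liver line that differentiates into hepatocyte-like and biliary-like cells. All groups were exposed for 24 h in the same induction medium with 0.2% DMSO as the vehicle, and imazalil is an azole fungicide with an imidazole ring. The other imazalil concentrations were used to share the estimate of the spread, and the 12 arrays at 0.001, 0.003, 0.01 and 0.03 µM, called low here, gave a level from which the shift already reached at 3 µM was read. The 3 replicates were independent experiments on separate batches of cells.

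Liver cells answer foreign chemicals through nuclear receptors and other ligand-activated transcription factors. CAR and PXR induce the CYP2B and CYP3A families, drug conjugation enzymes and efflux pumps, while the aryl hydrocarbon receptor AHR induces CYP1A1 and CYP1A2. P450 enzymes need heme, made from the product of ALAS1, and electrons from the reductase POR. Azole fungicides act on fungal sterol 14-alpha-demethylase, a P450, and the human sterol pathway holds the related enzyme CYP51A1.

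The promoters of 5 P450 genes are shown because these genes behaved differently between 3 and 10 µM. Each is the 250 bases before the RefSeq transcription start in GRCh38.p14, on the strand of the gene. CYP1A1 lies at chr15:74725529-74725778 on the minus strand and CYP1A2 at chr15:74748595-74748844 on the plus strand. CYP2B6 lies at chr19:40991032-40991281 on the plus strand. CYP3A4 lies at chr7:99784185-99784434 and CYP3A7 at chr7:99735197-99735446, both on the minus strand. Capitals mark GCGTG, the core of the xenobiotic response element read by AHR, in the CYP1A pair, and AGGTCA and TGAACT, half-sites of nuclear receptor elements, in the other windows. Both strands were searched.
CYP1A1: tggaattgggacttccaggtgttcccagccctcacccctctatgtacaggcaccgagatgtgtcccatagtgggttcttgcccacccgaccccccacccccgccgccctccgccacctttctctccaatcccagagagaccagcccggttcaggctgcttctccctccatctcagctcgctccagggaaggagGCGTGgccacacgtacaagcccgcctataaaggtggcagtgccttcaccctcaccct
CYP1A2: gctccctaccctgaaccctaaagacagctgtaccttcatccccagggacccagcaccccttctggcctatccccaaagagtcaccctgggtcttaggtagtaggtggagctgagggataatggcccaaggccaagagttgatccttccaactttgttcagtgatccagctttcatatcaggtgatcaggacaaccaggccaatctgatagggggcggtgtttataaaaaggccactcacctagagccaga
CYP2B6: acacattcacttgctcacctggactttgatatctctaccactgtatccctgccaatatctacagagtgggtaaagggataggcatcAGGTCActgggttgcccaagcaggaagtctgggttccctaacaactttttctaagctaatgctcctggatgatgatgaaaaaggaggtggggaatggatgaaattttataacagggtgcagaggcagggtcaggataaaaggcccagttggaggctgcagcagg
CYP3A4: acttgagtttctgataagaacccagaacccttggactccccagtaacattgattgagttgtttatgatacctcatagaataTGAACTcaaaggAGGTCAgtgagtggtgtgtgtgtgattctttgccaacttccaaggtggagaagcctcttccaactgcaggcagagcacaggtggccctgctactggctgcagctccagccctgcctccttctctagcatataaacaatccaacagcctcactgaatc
CYP3A7: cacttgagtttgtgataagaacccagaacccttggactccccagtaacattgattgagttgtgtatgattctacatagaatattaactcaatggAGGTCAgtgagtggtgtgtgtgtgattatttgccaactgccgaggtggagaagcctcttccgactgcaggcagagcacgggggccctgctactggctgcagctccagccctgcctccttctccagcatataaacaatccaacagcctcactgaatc

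GCGTG stood 57 to 53 bases before the CYP1A1 start and was not found in the CYP1A2 window. AGGTCA was found in the CYP2B6, CYP3A4 and CYP3A7 windows, and TGAACT in that of CYP3A4 alone of these 3, at 169 to 164 bases before the start. The CYP3A4 and CYP3A7 windows were identical at 94.8% of 249 aligned bases. Over all RefSeq promoters of this length, 32.2% held GCGTG, 12.1% held AGGTCA and 8.8% held TGAACT. Of the 27 promoters matched to 20 of the 26 genes that rose in the step, 22.2% held GCGTG, 14.8% AGGTCA and 14.8% TGAACT. Of the 21 promoters matched to 16 of the 21 genes that fell, 23.8% held GCGTG, 19% AGGTCA and 9.52% TGAACT. The letters are a description of the windows, and AGGTCA and TGAACT were added to the search after the expression values were seen.

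In the comparison of 10 with 3 µM, 47 of 19774 genes passed the test at a false discovery rate of 0.05, with 26 higher and 21 lower at 10 µM. They made up 0.238% of all genes, 0.131% higher and 0.106% lower. The 3 arrays at 10 µM did not overlap the 3 at 3 µM for 44 of the 47, which was the case for 10.8% of all genes, and the exceptions were GDF15, CD3D and CCN2. All 47 moved in 1 direction in the 3 replicate pairs, as did 26.5% of all genes. The P450 genes CYP1A1 and CYP1A2 led the rises, and the imprinted RNA H19 and the activin subunit INHBE led the falls. Without the replicate block 27 genes passed, 17 higher and 10 lower, and without replicate 3 the number was 15. The largest step of a rising gene lay in pair 3 for 16 of 26 genes, and that of a falling gene in pair 2 for 15 of 21. Without replicate 2, 5 genes fell and 41 rose.

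**Figure D1:**
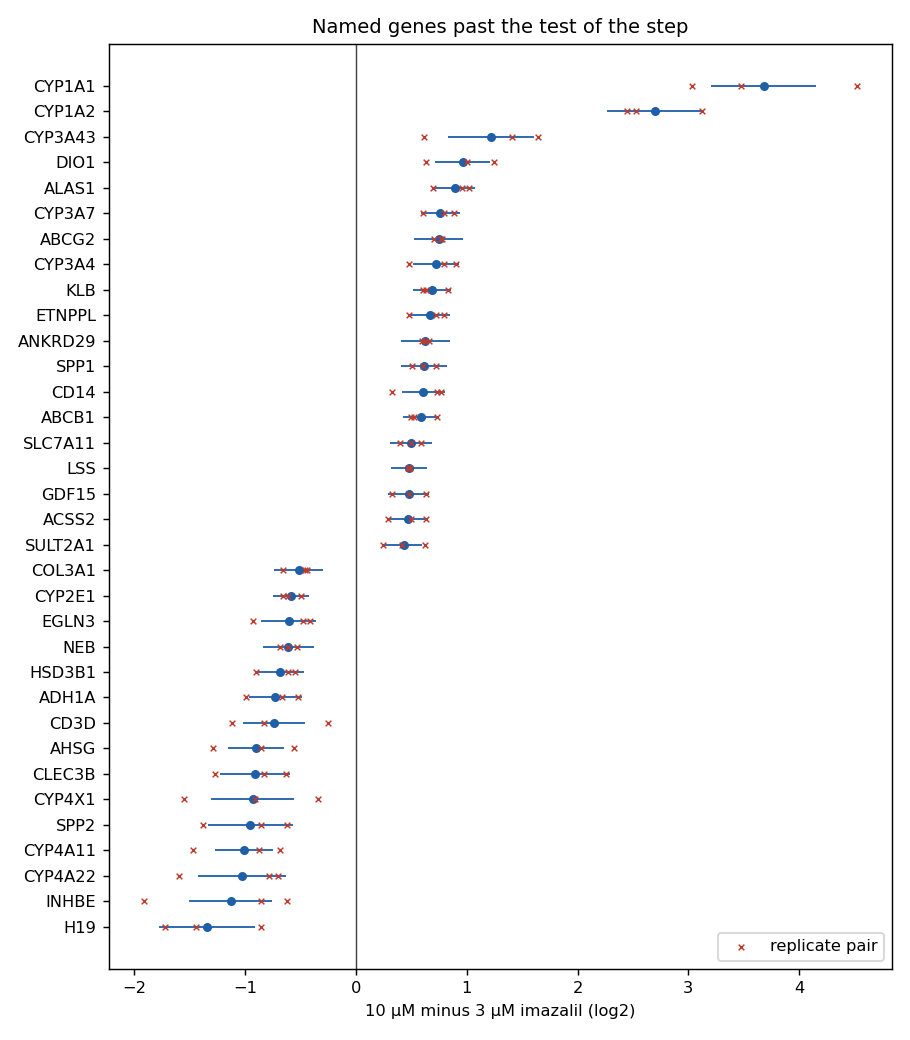
Difference between 10 and 3 µM imazalil (log2, x axis) for the named genes that passed the test, with the 95% confidence interval (line), the estimate (dot) and the 3 replicate pairs (crosses). CYP1A1 at 3.68 and CYP1A2 at 2.70 stand apart from the other rises, which lie at 1.22 or below, and the falls reach -1.34 for H19.

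CYP1A1, an AHR-induced P450 that oxidises polycyclic aromatics, made the largest step. Its log2 level was 5.38, 4.27 and 4.17 at 3 µM and 8.41, 8.79 and 7.65 at 10 µM in replicates 1 to 3, against a mean of 2.88 in the low arrays. The groups were far apart, and replicate 1 was the highest at 3 µM. The step was 3.68 (SE 0.23, log2), a 12.8-fold rise with an adjusted p of 4.22e-09. The low mean lay within the range of the array medians, 2.81 to 2.91, so how far the gene stood above background there is not known. The shift of 1.72 at 3 µM (adjusted p = 9.49e-06) is therefore relative to that floor, and no share of the 10 µM shift is given.

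CYP1A2, the neighbouring hepatic P450, rose by 2.70 (SE 0.21, adjusted p = 1.95e-07), a 6.49-fold change. Its levels were 5.12, 5.28 and 4.26 at 3 µM and 7.65, 7.72 and 7.38 at 10 µM, with a low mean of 4.12. Replicate 3 at 3 µM lay inside the low range of 3.83 to 4.42 and the other replicates above it, and the shift at 3 µM of 0.76 did not pass (adjusted p = 0.0766). Of 9 AHR targets measured, CYP1A1 and CYP1A2 rose and none fell, where 0.131% of all genes rose. The median step of the list was 0.10 against 0.01 over all genes. The others lay between -0.17 for AHRR, the AHR repressor, and 0.23 for ALDH3A1, an aldehyde dehydrogenase. ALDH3A1 had passed at 3 µM with a shift of 0.52, though not without replicate 1 (adjusted p = 0.0843) or against DMSO (0.551), while CYP1B1 had a step of 0.05 (adjusted p = 0.958). The steps of CYP1A1 and CYP1A2 also passed when the 6 arrays were fitted alone, the only genes to do so.

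**Figure D2:**
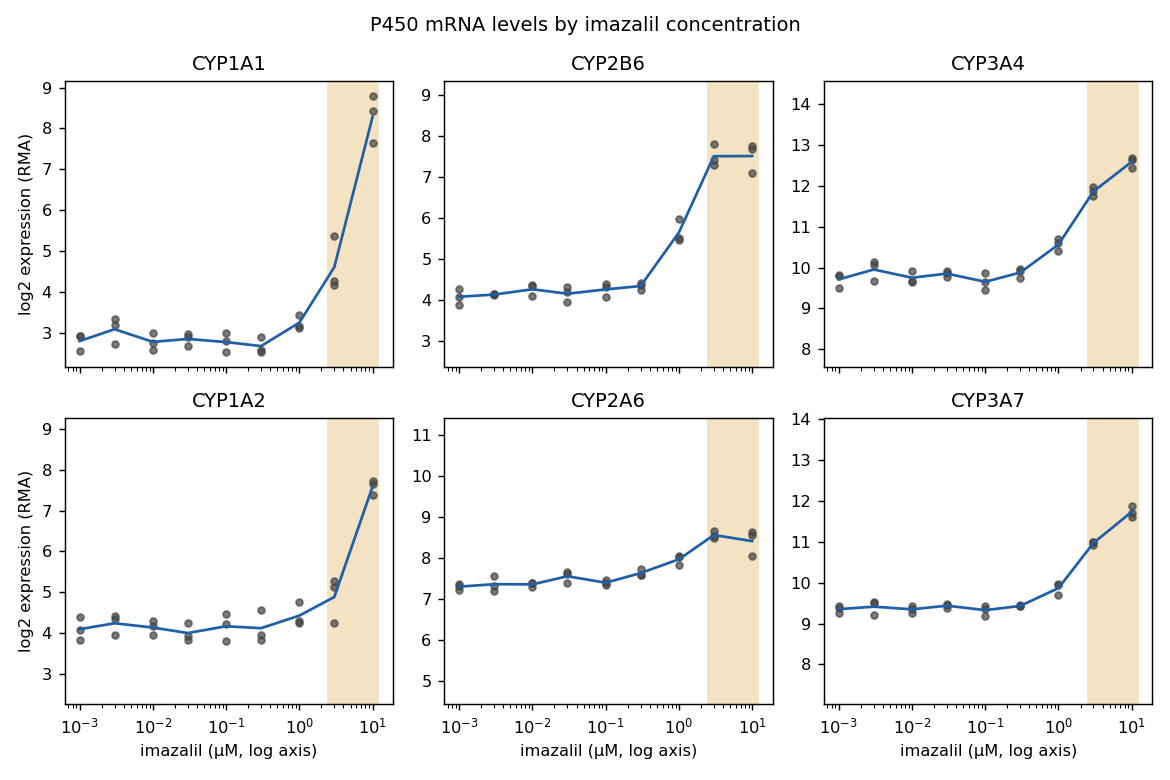
Log2 expression (y axis) of 6 P450 genes on each array (dots) and the mean per concentration (line) over imazalil concentration (x axis, log scale), with 3 and 10 µM shaded and y axes of equal span. CYP1A1 and CYP1A2 climbed most between 3 and 10 µM, CYP3A4 and CYP3A7 less, and CYP2B6 had the same mean of 7.51 at both.

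CYP3A4, the main drug-oxidising P450 of liver and a PXR target, had made most of its shift by 3 µM and rose further. The levels were 11.88, 11.96 and 11.74 at 3 µM and 12.67, 12.44 and 12.64 at 10 µM, and the low mean was 9.82. The groups did not overlap, and the step was 0.72 (SE 0.10, 1.65-fold, adjusted p = 0.000618) after a shift of 2.04 at 3 µM, 73.8% of that at 10 µM. CYP3A7, the fetal form, rose by 0.76 (SE 0.08, adjusted p = 4.59e-05) from a mean level of 10.97 ± 0.04 (SD, n = 3) to 11.88, 11.60 and 11.71, with 67.5% of its shift present at 3 µM. CYP3A43, a less studied member of the locus, stepped by 1.22 (SE 0.19, adjusted p = 0.00267). Its low mean was 3.56, and 44.9% of its shift was present at 3 µM. Its levels were 4.85, 4.26 and 4.55 at 3 µM and 5.46, 5.66 and 6.19 at 10 µM. Without replicate 3 its step was 1.01 and did not pass (adjusted p = 0.057). Of its 4 probe sets 2 passed, with steps of 0.82 and 1.22. The other 2 had steps of 0.64 and 0.79 (adjusted p = 0.277 and 0.317). These genes are near-identical copies in part. Of the 4 probe sets of CYP3A4, 3 passed with steps of 0.72, 0.82 and 1.29, and 2 of the 3 of CYP3A7 passed with 0.52 and 0.76. The 2 probe sets of CYP3A4 and CYP3A7 that did not pass had mean levels of 2.23 and 3.05 over the 27 arrays. ZSCAN25, a zinc finger gene beside the CYP3A cluster, had a step of 0.72 that did not pass (adjusted p = 0.224), after a shift of 2.10 at 3 µM. The shift was seen in 1 of its 3 probe sets, and the others had shifts of 0.25 and 0.17 (adjusted p = 0.323 and 0.637) and steps of -0.19 and -0.24. The 3 µM arrays of the brightest, at 8.32, 8.72 and 8.91, were spread more widely than the 10 µM arrays at 9.36, 9.37 and 9.38.

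CYP2B6, the P450 best known as a CAR target, had made its whole shift by 3 µM. Its levels were 7.28, 7.43 and 7.82 at 3 µM and 7.76, 7.09 and 7.70 at 10 µM, so the groups overlapped, and both lay far above the low mean of 4.15. The shift at 3 µM was 3.36 (SE 0.13, adjusted p = 1.40e-14), and the step was 0.00 with a 95% confidence interval of -0.32 to 0.33. Genes were called held from 3 µM where they had passed there and the interval of the step stayed within 0.5 times the shift at 3 µM in either direction. By this rule CYP2B6, CYP2A6 and the pseudogene CYP2B7P were held, 3 of the 32 genes that passed at 3 µM, each judged on its brightest probe set. Without replicate 1 the CYP2B6 step was -0.23, and it was -0.03 after a second quantile normalization.

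CYP2A6, the nicotine-oxidising P450 of the same cluster, had levels of 8.47, 8.54 and 8.66 at 3 µM and 8.57, 8.03 and 8.63 at 10 µM. Its step was -0.15 (interval -0.40 to 0.10) after a shift of 1.17, and it was 0.03 without replicate 2, which was the lowest array at 10 µM. Its 4 probe sets had steps of -0.40 to -0.15, and that with the step of -0.40 (-0.70 to -0.11) after a shift of 1.37 would not count as held. CYP2B7P had a step of 0.09 (-0.31 to 0.49) after a shift of 1.34, and -0.03 without replicate 1. CYP2A7, whose protein is not known to be active, had a step of -0.29 (-0.54 to -0.05, adjusted p = 0.524) after a shift of 0.99 and was not held by the rule. CYP2A and CYP2B genes are close in sequence, and how far their probe sets share signal was not tested.

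**Figure D3:**
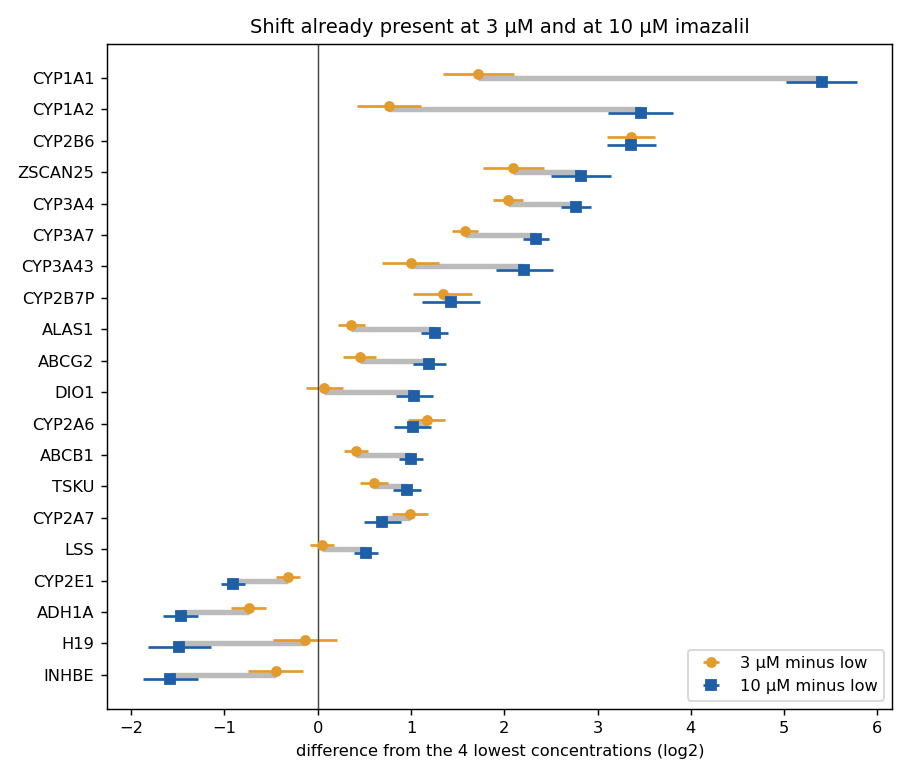
Difference from the 12 low arrays at 3 µM (circles) and at 10 µM (squares) on the log2 scale (x axis) with 95% confidence intervals, for named genes that passed at 3 µM and for CYP1A2, DIO1, LSS, H19 and INHBE. The symbols coincide for CYP2B6 at 3.36, and lie farthest apart for CYP1A1, where the step is 3.68 and the low mean of 2.88 lies at the level of the array medians.

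Of the 32 genes past the threshold at 3 µM, 0.162% of all, 23 were higher than in the low arrays and 9 lower, 0.116% and 0.0455% of all genes. Of these, 11 moved further in the step, 3 were held, and 18 did neither. The 11 were CYP3A4, CYP3A7, CYP3A43, CYP1A1, ABCB1, ABCG2, GPX2, POR and ALAS1, which rose, and ADH1A and CYP2E1, which fell. Among the 18, 7 had a low mean under 4 on the log2 scale, 11 had a step opposite in sign to the shift at 3 µM, and 9 passed at 10 µM. TSKU, a secreted leucine-rich repeat protein, had levels of 9.27, 9.01 and 8.88 at 3 µM and 9.56, 9.41 and 9.25 at 10 µM, and its step of 0.35 did not pass (adjusted p = 0.179). At 10 µM against the low arrays 482 genes passed, 2.44% of all, of which 436 did not pass in the step. Of the 47 genes of the step 46 passed at 10 µM, NKIRAS1 being the exception, and the median share of their 10 µM shift seen at 3 µM was 25.2%. The step and both shifts share arrays, so these classes are descriptions. With DMSO as the reference 13 genes passed at 3 µM and 182 at 10 µM. The count at 3 µM was 16 without replicate 1, 172 without replicate 2 and 15 without replicate 3, with 12, 25 and 14 of the 32 among them. Among the 11, the shift at 3 µM was lost for CYP3A43 without replicate 1 (adjusted p = 0.0843) or 3 (0.127), for ABCB1 without replicate 1 (0.0745), and without any 1 replicate for ABCG2 (0.1 to 0.22) and CYP2E1 (0.0677 to 0.463). The losses of ALAS1, POR and GPX2 are given with those genes. Against DMSO the shift at 3 µM did not pass for ALAS1 and CYP2E1 (0.242 each), POR (0.268), ABCG2 and GPX2 (0.0699 each). The count at 10 µM was 320 without replicate 1, 127 without replicate 2 and 194 without replicate 3.

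ALAS1, which makes the first committed heme precursor, had levels of 8.37, 8.40 and 8.09 at 3 µM and 9.32, 9.10 and 9.11 at 10 µM. All 10 µM arrays were above all 3 µM arrays, and the step was 0.89 (SE 0.09, 1.86-fold, adjusted p = 6.01e-06). Its shift at 3 µM was 0.36, which did not pass in any fit without 1 replicate (adjusted p 0.0798 to 0.14). POR, the reductase that serves microsomal P450 enzymes, rose by 0.50 in the step (adjusted p = 0.0324) after a shift of 0.47 at 3 µM. Its step failed without any 1 replicate (adjusted p 0.0714 to 0.378) and without the block (0.136), and its shift failed without replicate 1 (0.0882) or replicate 3 (0.104).

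ABCG2, ABCB1, ABCC2 and SLC47A1, which encode efflux transporters, rose. The transporters ABCB11 and ABCB4, of the bile acid synthesis and transport list, had steps of -0.23 (adjusted p = 0.583) and -0.33 (adjusted p = 0.326). ABCG2, a pump of drugs and conjugates, had levels of 5.87, 6.04 and 5.55 at 3 µM and 6.63, 6.82 and 6.25 at 10 µM, the highest in replicate 2 at both concentrations. Its step was 0.75 (SE 0.11, adjusted p = 0.00116), and adjusted p was 0.103 without the replicate block. ABCB1, the P-glycoprotein gene, went from 8.82, 8.76 and 8.52 to 9.35, 9.26 and 9.25, a step of 0.59 (SE 0.08, adjusted p = 0.000618) that did not pass without replicate 3 (adjusted p = 0.0563). ABCC2, a conjugate pump, rose by 0.39 (adjusted p = 0.0135) and was lost without any 1 replicate (adjusted p 0.0612 to 0.242) or the block (0.496). SLC47A1, a cation extruder, rose by 0.51 (adjusted p = 0.0121), with an adjusted p of 0.247 without replicate 1 and 0.215 without replicate 3.

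Of 14 CAR and PXR targets measured, 7 rose and none fell, where 0.131% of all genes rose, and their median step was 0.43 against 0.01 over all genes. The 7 were ALAS1, CYP3A7, CYP3A4, ABCB1, ABCC2, SULT2A1 and POR, and the number was 4 without the replicate block and 4, 5 and 3 without replicates 1, 2 and 3. SULT2A1, a sulfotransferase of steroids and bile acids, went from 10.42, 10.51 and 10.26 to 10.83, 10.76 and 10.89. The groups did not overlap, and its step of 0.43 (adjusted p = 0.0241) failed without replicate 1 (adjusted p = 0.168), without replicate 3 (adjusted p = 0.509) and without the block (adjusted p = 0.103). Members that did not pass ranged from -0.15 for CYP2A6 to 0.51 for THRSP, with CYP2C8 at 0.22 and CYP3A5 at 0.42. The members were chosen with earlier results of these data known.

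Of 20 cholesterol synthesis genes and SREBP2 targets, 1 rose, where 0.131% of all genes did. The step was above 0 for 18 of them, as for 53.6% of all genes, and the median was 0.28 against 0.01. LSS, which closes squalene epoxide into lanosterol, had levels of 8.78, 8.76 and 8.65 at 3 µM and 9.27, 9.23 and 9.12 at 10 µM. All pairs rose alike, and the step was 0.48 (SE 0.08, adjusted p = 0.00598), with 8.45% of the shift present at 3 µM. By pair that share was 7.58, 16.3 and -0.0941%, and the shift at 3 µM did not pass (adjusted p = 0.828). Leaving out replicate 1 or 3 lost the call of the step (adjusted p = 0.0829 and 0.105). Of its 3 probe sets 1 passed, and the others had steps of 0.45 and 0.24 (adjusted p = 0.427 and 0.715). CYP51A1, the human 14-alpha-demethylase, had a step of 0.23 (adjusted p = 0.429), HMGCS1, an early enzyme of the pathway, 0.19 (0.01 to 0.38, adjusted p = 0.602) and MVD, a mevalonate enzyme, 0.33 (adjusted p = 0.199). Against the low arrays, 10 of the 20 passed at 10 µM, all higher, where 1.08% of all genes did, and none at 3 µM. Of 18 fatty acid synthesis genes 1 rose, where 0.131% of all genes did. ACSS2, which makes acetyl-CoA from acetate, went from 8.01, 8.10 and 8.13 to 8.63, 8.60 and 8.42, a step of 0.47 (adjusted p = 0.0154). Its adjusted p was 0.256 without replicate 1, 0.0875 without replicate 2 and 0.0847 without the block.

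DIO1, which activates thyroid hormone by deiodination, had levels of 7.24, 7.24 and 6.86 at 3 µM and 8.25, 7.87 and 8.11 at 10 µM. Its 3 µM arrays lay around the low mean of 7.04, and the step was 0.96 (SE 0.12, 1.95-fold, adjusted p = 0.00024), with 6.98% of the shift at 3 µM. By pair that share was 10.4, 22.1 and -6.93%, and the shift at 3 µM did not pass (adjusted p = 0.814). KLB, the co-receptor for FGF19 and FGF21, rose by 0.69 (SE 0.08, adjusted p = 0.000163) from 6.75, 6.67 and 6.51 to 7.35, 7.31 and 7.34, a narrow group at 10 µM. ETNPPL, an enzyme that breaks down phosphoethanolamine, went from 7.56, 7.74 and 7.54 to 8.28, 8.22 and 8.33, a step of 0.66 (SE 0.09, adjusted p = 0.000618) that gave an adjusted p of 0.0563 without replicate 3. ANKRD29, an ankyrin repeat gene, went from 6.63, 6.80 and 6.62 to 7.25, 7.46 and 7.22, with a step of 0.63 (adjusted p = 0.0101). Its adjusted p was 0.0958 without replicate 1 and 0.122 without replicate 3. ANKRD9 and SGK2 rose too, by 0.54 and 0.45, and the first was lost without replicate 3 (adjusted p = 0.297). SGK2 was lost without any 1 replicate (adjusted p 0.0875 to 0.598) and without the block (0.269).

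Few stress genes passed the test of the step, which 0.238% of all genes passed. SLC7A11, the cystine importer held in both the NRF2 and the amino acid stress lists, rose by 0.50 (SE 0.09, adjusted p = 0.0196) from 6.19, 6.15 and 6.07 to 6.69, 6.74 and 6.47. Its groups did not overlap, but it did not pass without any 1 replicate (adjusted p 0.0944 to 0.158) or without the block (adjusted p = 0.103). It was 1 of 14 NRF2 targets to pass, where 0.238% of all genes did, with a list median of 0.16. GPX2, a glutathione peroxidase outside that list, rose by 0.60 (adjusted p = 0.00315) after a shift of 0.48 at 3 µM, and the step was lost without replicate 3 (adjusted p = 0.101) and the shift without replicate 1 (0.0922). GDF15, a stress-responsive cytokine and p53 target, had levels of 9.77, 8.28 and 8.14 at 3 µM and 10.09, 8.91 and 8.62 at 10 µM. Replicate 1 was far higher than the others at both concentrations, so the groups overlapped although all pairs rose. Its step of 0.48 had an adjusted p of 0.0208 with the replicate block and 0.929 without it, and it failed also without replicate 1 (0.0518), replicate 2 (0.129) or replicate 3 (0.242). It was 1 of 10 p53 targets to pass, where 0.238% of all genes did. Of 20 amino acid and integrated stress response genes, SLC7A11 rose and INHBE fell, where 0.131% of all genes rose and 0.106% fell. ASNS, asparagine synthetase, had a step of 0.56 (adjusted p = 0.099) and TRIB3, a pseudokinase, 0.28 (adjusted p = 0.393). None of 14 ER chaperone and unfolded protein response genes passed, with a median of -0.15 and 1 step above 0, and none of 10 heat shock or 15 cell cycle genes. At an unadjusted p under 0.05 by limma, 2, 1 and 3 members of these lists were past it, against 1867 of 19774 genes.

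INHBE, a liver-secreted activin subunit, fell by 1.13 (SE 0.18, 2.19-fold, adjusted p = 0.00426). Its levels were 6.74, 7.56 and 7.56 at 3 µM and 6.11, 5.65 and 6.70 at 10 µM, with a low mean of 7.73. Pairs 1 to 3 had steps of -0.62, -1.91 and -0.86, so pair 2 fell most. The SE rests on the spread pooled over all imazalil arrays, and the SD of INHBE was 0.53 at 10 µM against 0.32 in the low arrays. Without replicate 2 its adjusted p was 0.071, and without the replicate block 0.242. H19, an imprinted long non-coding RNA of fetal liver, fell by 1.34 (SE 0.21, adjusted p = 0.00315) from 5.15, 6.07 and 6.30 to 4.29, 4.34 and 4.86. Its 3 µM arrays spanned the low mean of 5.98, and 9.35% of its shift was present at 3 µM. By pair that share was 45.7, -5.71 and -17.6%, and the shift at 3 µM did not pass (adjusted p = 0.787). The step of H19 did not pass without replicate 2 (adjusted p = 0.0679), replicate 3 (0.0756) or the block (0.0845), and 1 of its 2 probe sets passed.

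CYP4A11, a fatty acid omega-hydroxylase and PPARA target, had levels of 5.61, 6.16 and 6.22 at 3 µM and 4.92, 4.69 and 5.35 at 10 µM. The groups did not overlap, and it fell by 1.01 (SE 0.13, 2.01-fold, adjusted p = 0.000203). It was the only 1 of 15 PPARA and fatty acid oxidation genes to pass, where 0.238% of all genes did. CYP4A22, its near-identical neighbour, went from 5.35, 5.51 and 5.54 to 4.57, 3.92 and 4.83, a fall of 1.03 (adjusted p = 0.02) that did not pass without any 1 replicate (adjusted p 0.0694 to 0.133). CYP4X1, a P450 of the same region, fell by 0.93 (adjusted p = 0.0275), and leaving out replicate 1 or 2 lost the call (adjusted p = 0.186 and 0.181). CYP2E1, the ethanol-oxidising P450, fell by 0.59 (SE 0.08, adjusted p = 0.000494) from 9.81, 9.82 and 9.78 to 9.20, 9.16 and 9.28, the tightest groups among the falls described here. ADH1A, a class I alcohol dehydrogenase, went from 7.92, 8.33 and 8.39 to 7.40, 7.34 and 7.73, a fall of 0.73 (adjusted p = 0.00375) with 50.4% of the shift at 3 µM. Its step did not pass without replicate 2 (adjusted p = 0.0728), replicate 3 (0.0563) or the block (0.0845). Of the 14 P450 genes listed apart from the induced families, CYP4A11 and CYP2E1 fell and none rose, where 0.106% of all genes fell.

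AHSG, which encodes fetuin-A, had levels of 9.97, 10.35 and 10.50 at 3 µM and 9.42, 9.06 and 9.65 at 10 µM, and fell by 0.90 (SE 0.12, 1.87-fold, adjusted p = 0.00058). SPP2, a secreted phosphoprotein, went from 6.42, 6.71 and 7.20 to 5.80, 5.33 and 6.35, a fall of 0.95 (adjusted p = 0.028) that did not pass without any 1 replicate (adjusted p 0.0626 to 0.129) or the block (0.103). CLEC3B, which encodes tetranectin, fell by 0.91 (adjusted p = 0.00764), from 5.47, 5.93 and 6.43 to 4.65, 5.31 and 5.16, with an adjusted p of 0.293 without replicate 3 and 0.232 without the block. HSD3B1, a steroid dehydrogenase, fell by 0.69 (adjusted p = 0.00286), from 6.81, 7.19 and 7.25 to 6.20, 6.29 and 6.70, and its adjusted p was 0.0612 without replicate 2. EGLN3, a hypoxia-responsive prolyl hydroxylase, fell by 0.61 (adjusted p = 0.0294), from 8.30, 8.19 and 8.17 to 7.89, 7.26 and 7.69. Leaving out replicate 2 or 3 lost its call (adjusted p = 0.148 and 0.166). It was the only 1 of 16 glycolysis and hypoxia genes to pass, where 0.238% of all genes did. Replicate 2 was the lowest of the 10 µM arrays for AHSG, SPP2 and EGLN3.

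NEB, which encodes the muscle protein nebulin, fell by 0.61 (adjusted p = 0.0139) from 6.07, 6.10 and 6.37 to 5.45, 5.57 and 5.69, with an adjusted p of 0.12 without replicate 1 and 0.108 without replicate 3. CD3D, a T cell receptor chain, fell by 0.74 (adjusted p = 0.0169) from 4.89, 5.81 and 5.85 to 4.64, 4.69 and 5.02. Its groups overlapped through the low replicate 1 at 3 µM, and the call was lost without replicate 2 (adjusted p = 0.151), replicate 3 (0.284) and the block (0.423). The remaining 6 genes that fell were ANXA13, WDR72, RGS2, INHBB, RTN1 and CCN2, with steps between -0.58 and -0.37, and each of them was lost without replicate 2 and also without replicate 3 (adjusted p 0.0563 to 0.316).

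All 9 measured hepatocyte markers were above the 75th percentile of probe sets, as were 3 of 6 biliary, 3 of 6 mesenchyme, 0 of 4 endothelium and 1 of 5 immune markers. ALB had a step of 0.01 and APOB of -0.02, and 1 of the 9 hepatocyte markers, AHSG, fell, where 0.106% of all genes did. The mean log2 level of the 9 was 11.86 to 11.89 over the 3 µM arrays and 11.64 to 11.80 over the 10 µM arrays. Without AHSG the other 8 had a mean step of -0.03, from -0.12 to 0.04. Of the biliary markers SPP1, osteopontin, rose by 0.61 (adjusted p = 0.00649) from 8.26, 8.35 and 8.13 to 8.76, 8.95 and 8.85, while KRT19 had a step of -0.17 and EPCAM of 0.00, and the list mean was 5.24 to 5.33 at 3 µM and 5.39 to 5.42 at 10 µM. SPP1 did not pass without replicate 3 (adjusted p = 0.176). COL3A1, a collagen of mesenchymal cells, fell by 0.52 (adjusted p = 0.0443) from 5.98, 6.49 and 6.13 to 5.54, 5.83 and 5.68, with 1 of its 5 probe sets passing, and the list mean was 5.58 to 5.95 at 3 µM and 5.59 to 5.81 at 10 µM. COL3A1 did not pass without any 1 replicate (adjusted p 0.131 to 0.24) or the block (0.252). The other mesenchyme markers of the 6 did not pass. Their steps were 0.21 for COL1A1, 0.19 for COL1A2, 0.05 for ACTA2, -0.09 for PDGFRB and -0.40 for DCN. CD14, a lipopolysaccharide co-receptor that hepatocytes also make, rose by 0.61 (adjusted p = 0.00264) from 6.54, 6.79 and 6.62 to 7.31, 7.12 and 7.36, with an adjusted p of 0.0964 without replicate 1 and 0.118 without replicate 3. The pan-leukocyte marker PTPRC was at percentile 25.3 of probe sets, and the immune list mean was 3.40 to 3.61 at 3 µM and 3.48 to 3.69 at 10 µM. The part of cell composition in the steps was not tested, and in bulk RNA fewer cells of a type cannot be told apart from less RNA per cell.

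**Figure D4:**
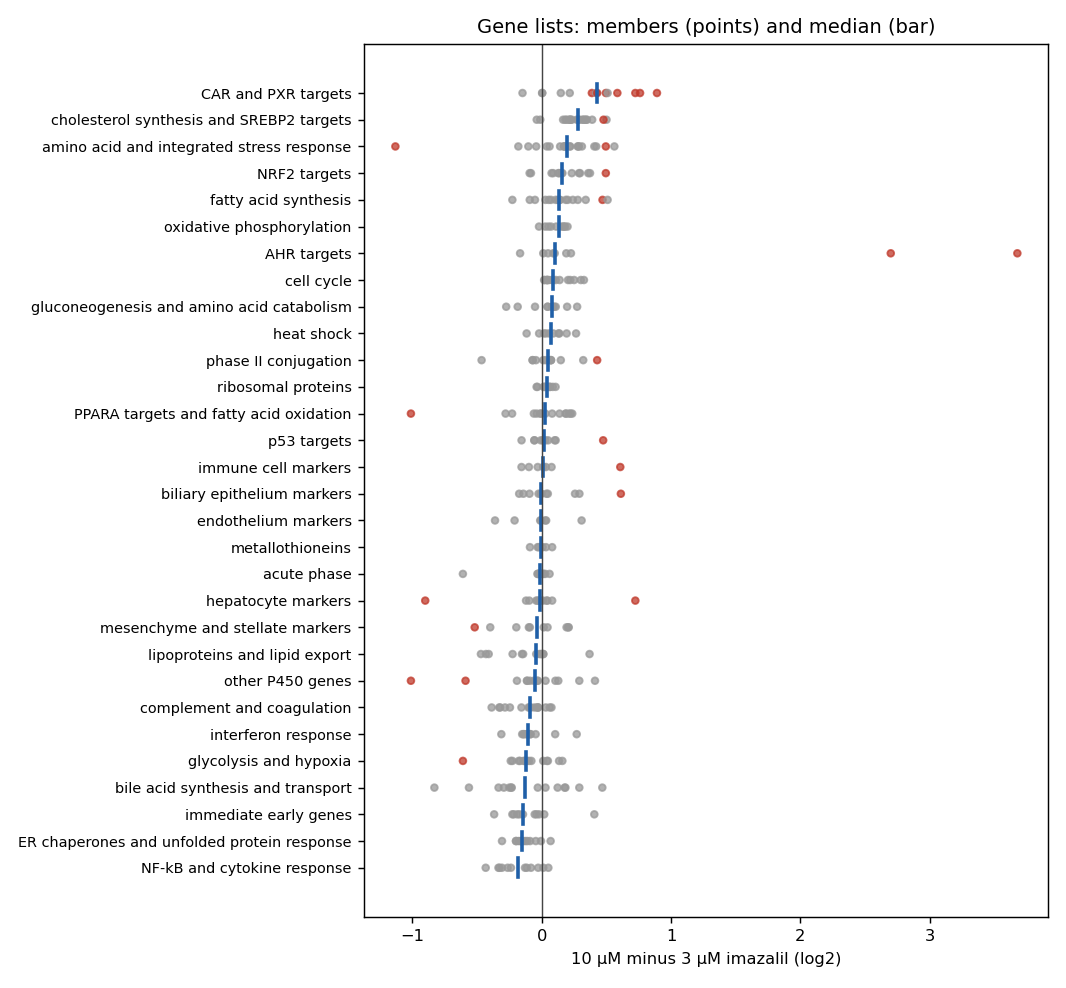
Difference between 10 and 3 µM imazalil (log2, x axis) for the measured members of 30 gene lists, with members that passed the test in red, the others in grey, and the list median as a bar. CAR and PXR targets have the highest median, 0.43, and NF-kB and cytokine response genes the lowest, -0.18, with no member of the latter passing.

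The remaining lists held no further gene that passed. They cover bile acid synthesis and transport (median -0.13), gluconeogenesis and amino acid catabolism, lipoproteins, acute phase, complement and coagulation (-0.09), interferon response (-0.11), NF-kB and cytokine response (-0.18), metallothioneins, immediate early genes, oxidative phosphorylation (0.13), ribosomal proteins and endothelium markers. At an unadjusted p under 0.05 by limma the number past it was 7 of 14 for bile acid genes, 5 of 12 for NF-kB genes, 4 of 13 for lipoprotein genes, 4 of 11 for immediate early genes, and 0 to 3 for each of the others. Over all genes 1867 of 19774 were past it. CYP8B1, the sterol 12-alpha-hydroxylase of bile acid synthesis, had a step of -0.56 (adjusted p = 0.0815) and the acute phase gene CRP of -0.61 (adjusted p = 0.429).

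Fenbuconazole, an azole with a triazole ring, was given to the same cell line at the same concentrations, so its step was compared with that of imazalil. Its 3 to 10 µM step passed for 136 genes, 0.688% of all (0.435% higher), and the difference between the steps passed for 12, 0.0607% of all. Of the 12, 3 had a larger step with imazalil, 0.0152% of all, which were CYP1A2, ETNPPL and ALAS1. The other 9, 0.0455%, had a smaller step with imazalil and were CYP3A4, CYP3A7, HMGCS1, MVD, LSS, ACSS2, ACLY, TRIB3 and PRUNE2. The count was 5 without the replicate block, 6 without replicate 1, 0 without replicate 2 (1642 genes at an unadjusted p under 0.05 by limma) and 1 without replicate 3, which was PRUNE2.

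CYP1A2 had levels of 4.58, 4.36 and 4.42 at 3 µM and 5.71, 5.66 and 4.91 at 10 µM fenbuconazole, below every imazalil array at 10 µM. The step was 0.97 with fenbuconazole, and the difference, imazalil minus fenbuconazole, was 1.72 (SE 0.32, adjusted p = 0.0117). For CYP1A1 the fenbuconazole step was 2.34, and the difference of 1.33 (0.73 to 1.94) did not pass (adjusted p = 0.116). ALAS1 differed by 0.53 (adjusted p = 0.0308) and ETNPPL by 0.70 (adjusted p = 0.0118), the latter with a fenbuconazole step of -0.03.

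CYP3A4 had levels of 10.80, 10.40 and 10.39 at 3 µM and 12.24, 11.93 and 12.11 at 10 µM fenbuconazole. These 3 µM arrays were all lower than those with imazalil, the fenbuconazole step was 1.56, and the difference was -0.84 (SE 0.14, adjusted p = 0.00214). CYP3A7 differed by -0.74 (adjusted p = 0.0121). CYP2B6 had steps of 0.00 with imazalil and 0.13 with fenbuconazole, and the difference was -0.13 (adjusted p = 0.96). The arrays of the chemicals were normalized separately, so levels side by side carry that limit.

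HMGCS1 had levels of 10.51, 10.20 and 10.00 at 3 µM and 11.35, 11.37 and 11.15 at 10 µM fenbuconazole, a step of 1.05 against 0.19 with imazalil. The difference was -0.86 (SE 0.12, adjusted p = 0.000737). MVD differed by -0.98 (adjusted p = 0.00145), LSS by -0.54 (adjusted p = 0.0235) and the acetyl-CoA enzymes ACSS2 and ACLY by -0.73 (adjusted p = 0.00716) and -0.53 (adjusted p = 0.0434). Of the 20 cholesterol genes 17 rose in the fenbuconazole step, with a median of 0.67. TRIB3 differed by -0.71 (adjusted p = 0.00256) and PRUNE2, a gene of little known function in liver, by -1.12 (adjusted p = 0.00214). The falls of CYP4A11 and AHSG were -1.01 and -0.86 with fenbuconazole, and their differences of 0.00 (adjusted p = 1) and -0.04 (adjusted p = 0.986) did not pass.

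**Figure D5:**
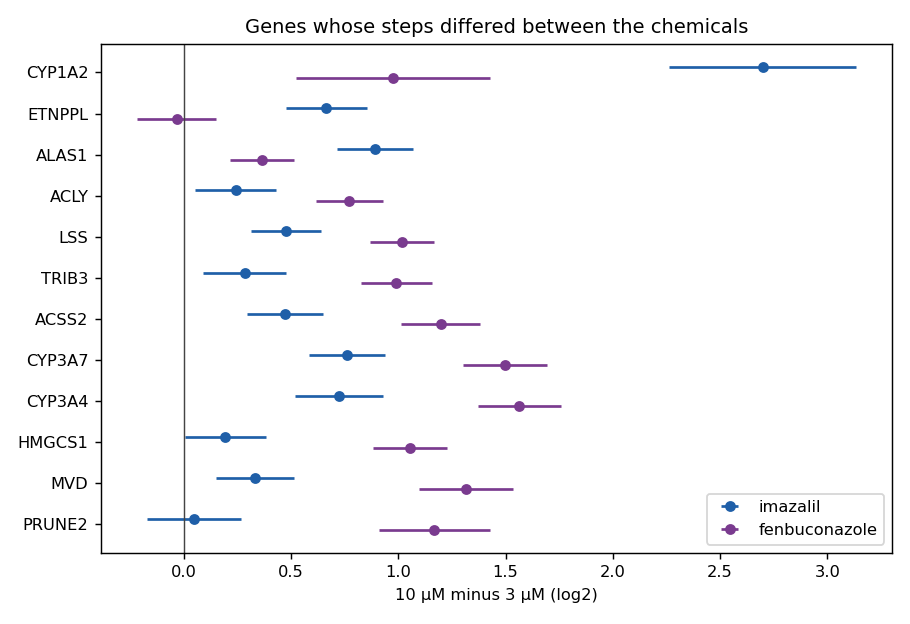
Difference between 10 and 3 µM (log2, x axis) with 95% confidence intervals for imazalil and fenbuconazole, for the 12 genes whose steps differed. CYP1A2 at 2.70 against 0.97 is larger with imazalil, and HMGCS1 at 0.19 against 1.05 is larger with fenbuconazole.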

How the data were processed

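RNA of HepaRG cells was measured with HT HG-U133+ PM arrays of Affymetrix. RMA, run by the authors for each chemical separately with common DMSO arrays, gave the deposited log2 values. RMA and Partek appear in the submitters' processing notes, with versions not given in the sources used here. Arrays have no counting depth, and their number limits the precision. Array medians of the 27 imazalil arrays were 2.81 to 2.91, and the 6 arrays correlated at 0.988 to 0.995.

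Concentration means and the replicate number as a block were fitted to the 27 arrays with limma 3.58.1 in R 4.3.3, with data.table (version 1.17.8). Each SE and p-value of the step thus rests on the spread of all 27 arrays, mostly at lower concentrations, and not on the 3 pairs alone. The SD at 10 µM was above that of the low arrays for CYP4X1 (0.49 against 0.16) and SPP2 (0.51 against 0.13). For CYP2E1 it was below (0.06 against 0.10). Moderated p-values were adjusted by Benjamini-Hochberg over 54715 probe sets at 0.05. The fenbuconazole step and the difference between the steps used 54 arrays with the replicate within each chemical as the block. That fit had 32 residual degrees of freedom, against 16 for the 27 arrays. A gene was its brightest single-symbol probe set: 40920 probe sets carried 1 symbol, 864 several and 12931 none, and the latter were tested but are not named. Of the former, 40864 matched RefSeq genes of GRCh38.p14, with 0 symbols changed.

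The supplement gives the replicates as independent experiments on separate batches, and in the imazalil and fenbuconazole sets the number equals the batch code of the labels. Deviations from group means correlated at a mean r of 0.09 within a number and -0.04 between, for 20 of 27 arrays the own number correlated best, and the 3 and 10 µM arrays of a pair at 0.28, -0.14 and -0.04. The block was kept because the comparison is paired by number.

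Named genes were the 12 largest rises and 12 largest falls that passed in 1 direction in all pairs, up to 4 passing members of each list, the 10 smallest adjusted p at 3 µM, the 8 smallest of the difference, and CYP1A1, CYP1A2, CYP2B6, CYP3A4, HMGCS1, INHBE and TRIB3. An item of the rule is not reported here. Others are named from short counts or list members, after their values were seen. Members and lists were chosen with earlier results of these data known. The fits were tested on simulated data with 200 changed probe sets. For the step, 31% of changes of 0.5 and 91% of changes of 1 (log2) were recovered. For the difference between the steps, 8% and 74% were recovered. A gene that did not pass can therefore still have a change of about 0.5. Alternatives were the block, filters, centring, normalization, the prior, the reference, the arrays fitted and each replicate left out. A replicate was left out only at the concentrations compared, and its arrays at the others stayed in the fit. Promoters came from RefSeq. Plots used Python 3.11.15 and matplotlib 3.10.9.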

Additional observations from a re-analysis of the deposited data

Results flagged for a closer look

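The step from 3 to 10 µM differed between imazalil and fenbuconazole, by a test of the difference itself, for 12 genes. On the log2 scale, imazalil minus fenbuconazole, it was -0.86 for HMGCS1, -0.98 for MVD, -0.84 for CYP3A4, -1.12 for PRUNE2, -0.71 for TRIB3, -0.73 for ACSS2, 1.72 for CYP1A2, 0.70 for ETNPPL, -0.74 for CYP3A7, -0.54 for LSS, 0.53 for ALAS1 and -0.53 for ACLY. None of these 12 passed without replicate 2 (1642 genes at an unadjusted p under 0.05 by limma), and none with the 12 arrays at 3 and 10 µM fitted alone (923 genes).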

How the results depend on the processing

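With every alternative, all 47 genes of the step kept their sign. Dropping the block, filtering by level, the other prior, the 6 arrays alone, adding DMSO arrays and adjusting over genes only leave the step estimate itself unchanged. No sign could turn under these, and only the other alternatives could show a change of sign. The 47 became 27 with no replicate block, 99 with a trended and robust prior, 2 with the 6 arrays alone and 75 with probe sets averaged per gene, and ranged from 15 to 46 with a replicate left out. Of the 47, 27, 47, 2 and 38 were among those called under these alternatives, and 25, 25 and 15 without replicates 1, 2 and 3. The 26 rises became 17, 52 and 2 under the first 3 of these and 9 to 41 with a replicate left out. The 21 falls became 10, 47 and 0, then 36 with probe sets averaged, and 5 to 18 with a replicate left out. The 21 list genes that passed became 13 with no replicate block, 36 with the other prior, 2 with the 6 arrays alone and 10 to 15 with a replicate left out. The 32 genes at 3 µM became 58 with the other prior, 13 with DMSO as the reference and 15 to 172 with a replicate left out. The 482 at 10 µM became 182 with DMSO as the reference and 127 to 320 with a replicate left out. The 12 differences of steps became 5 with no replicate block, 0 with the 12 arrays alone and 0 to 6 with a replicate left out. CYP1A1 and CYP1A2 passed in all 12 alternatives, and every other gene of the step was lost with the 6 arrays alone. Centring array medians lost CYP4X1 (adjusted p = 0.0675), EGLN3 (0.0666), COL3A1 (0.0967), CCN2 (0.118) and NKIRAS1 (0.0547). Averaging probe sets lost ANKRD29 (0.242), NEB (0.15), COL3A1 (0.107), SLC7A11 (0.114), SULT2A1 (0.0574), GPX2 (0.0815), ANKRD9 (0.0503), SGK2 (0.196) and WDR72 (0.42). Only the brightest probe set passed for LSS and SLC7A11 (1 of 3 each), and for ANKRD29, EGLN3, NEB, SPP1 and SULT2A1 (1 of 2 each). A second quantile normalization lost SLC7A11 (0.0646), SGK2 (0.0598) and NKIRAS1 (0.0745). The sign turned for CYP2B6 after a second quantile normalization (-0.0300), for PRUNE2 after it (-0.00576), and with a replicate left out for CYP2B6 (-0.230 to 0.175), CYP2B7P (-0.0296 to 0.258) and CYP2A6 (-0.269 to 0.0318). Of the remaining gene values tallied under alternatives, 622 kept direction and side of the threshold, 182 lost the threshold and 1 gained it. Alternatives in which the estimate, and so the direction, could not change are counted here too. This tally leaves out the steps of ANKRD9, ANXA13, CCN2, INHBB, NKIRAS1, RGS2, RTN1, SGK2 and WDR72. It also leaves out the shifts at 3 µM of ALDH3A1, GPX2 and POR. Each result left out lost the threshold under some alternatives.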
